A study of Rattus norvegicus with 12 samples.

Results

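Rat chromosome 12 was followed here through its extrachromosomal circular DNA (eccDNA), small closed DNA molecules that lie outside the chromosomes. The members are the deposited eccDNA entries assigned to chromosome 12, 4462 of 228353 entries (1.95%). The chromosome was chosen because its share of circles differed between irradiated and control libraries, so its number and share of circles against control are a description and carry no test. Circular DNA came from the back skin of wild-type SD (Sprague Dawley) rats and was sequenced by Circle-seq, in which linear DNA is digested by exonuclease before the remaining circles are made into libraries with a transposase kit. The 12 libraries form 3 groups of 4: untreated skin (control), skin irradiated by electron beam once a week with 5 Gy, either 2 times (5 Gy x2) or 4 times (5 Gy x4), and taken on day 7 after the last exposure. Total dose and time since the first exposure cannot be told apart in these groups, and the labels give no sampling time for control skin. Whether each library is a separate animal is not stated in the labels, and the tests measure a spread between libraries that may be technical. A bulk skin sample holds many cell types, and more circles per cell and more cells that carry circles cannot be told apart.

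Circles of this kind are found in healthy and diseased tissue. They form when a piece of chromosomal DNA is cut out and its ends are joined, for instance during the repair of DNA breaks or from fragments of dying cells, and most of those short enough to span a few nucleosomes carry no complete gene. Ionising radiation breaks DNA strands, and irradiated skin loses dividing cells of the epidermis and hair follicles and recruits inflammatory cells. Rat chromosome 12 is a short, gene-dense chromosome that carries, among others, the region deleted in Williams syndrome in humans, the repair gene Brca2 and the interferon-induced Oas genes.

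The circles are given by their positions on the rn6 build (the build named in the submitters' processing notes), and their own sequences were not read here. Il3ra, Ccl24 and Aldh2 had circles upstream in more than 1 library, and RefSeq promoters on another build, GRCr8, were given for 2 of these 3 genes, each 250 bases before to 50 bases after the start of the gene, 300 bases in all. They are printed because the circles described further on lay within 2 kb upstream of these genes, and whether a circle covers the printed window was not determined. Capitals mark CG dinucleotides, the sites of DNA methylation in mammals. The first is the promoter of Il3ra, a cytokine receptor subunit of blood cells (GRCr8 chr12:21437201-21437500, minus strand), and the second that of Ccl24, a chemokine that draws eosinophils (GRCr8 chr12:26737173-26737472, plus strand).
Il3ra: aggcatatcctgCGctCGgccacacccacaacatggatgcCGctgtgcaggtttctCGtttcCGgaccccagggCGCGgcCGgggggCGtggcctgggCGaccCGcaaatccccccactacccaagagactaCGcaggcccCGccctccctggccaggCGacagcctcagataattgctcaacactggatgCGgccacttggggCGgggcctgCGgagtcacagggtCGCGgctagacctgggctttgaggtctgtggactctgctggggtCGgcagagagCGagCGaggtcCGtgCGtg
Ccl24: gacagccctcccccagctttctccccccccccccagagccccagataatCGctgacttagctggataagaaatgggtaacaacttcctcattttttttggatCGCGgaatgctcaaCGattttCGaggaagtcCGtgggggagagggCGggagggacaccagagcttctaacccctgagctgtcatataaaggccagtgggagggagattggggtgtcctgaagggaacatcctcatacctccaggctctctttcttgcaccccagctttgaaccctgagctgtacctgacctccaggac
The Il3ra window held 24 CG and had a GC content of 67.3%, and 18.0% of the 33469 RefSeq promoters of the same length held at least as many CG. The Ccl24 window held 7 CG at a GC content of 55.3%, and 51.4% of promoters held at least as many CG. The 1065 promoters of chromosome 12 had a median of 9 CG and a GC content of 54.7%, against 7 CG and 51.7% over all promoters.

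Depth is known only as supporting reads, the split reads and read pairs that the deposited tables count for each circle. Control libraries held 35525 to 197061 of them, 5 Gy x2 libraries 52159 to 404815 and 5 Gy x4 libraries 181736 to 324186. Total sequencing depth is unknown. Presence in a library means 1 supporting read or more. Over the genome, control libraries listed 3601 to 10389 eccDNA, 5 Gy x2 libraries 6326 to 28757 and 5 Gy x4 libraries 20124 to 46163. Intervals on shares cover counting error only, since amplified reads without molecular identifiers are not independent molecules.

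The entries of chromosome 12 were short, gene-rich and mostly private to a library. They ran from base 32995 to base 52715442 with a median length of 356 bp (quartiles 271 and 382 bp, range 13 to 67243 bp), and 2580 of them (57.8%) measured 330 to under 420 bp, a length near that of DNA wrapped round a pair of nucleosomes. A second group of 801 entries measured 150 to under 250 bp, near the length of a nucleosome's DNA with its linker, while 78 entries reached 1000 bp. The deposited annotation placed 2074 entries (46.5%) between genes and 1885 (42.2%) in introns, with 292 (6.54%) in exons, 110 within 2 kb upstream and 101 within 2 kb downstream of a gene. Elsewhere in the genome 60.3% of entries were intergenic, 31.8% intronic and 4.67% exonic. Of the 4462 entries, 4168 (93.4%) were listed in 1 library, 294 in more than 1 and 67 in 4 or more, against 96.1% in 1 library on the other chromosomes. Irradiated libraries alone listed 3619 entries, control libraries alone 669, and 174 were listed in both. Irradiated libraries outnumber those of control and on average list more eccDNA over the genome. The same split was not counted over the other chromosomes, so it is not read as a trait of chromosome 12.

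Irradiated libraries held more chromosome 12 circles on average, but these made up a smaller part of the library. Control libraries listed 174, 337, 308 and 171 circles on chromosome 12 in replicates 1 to 4, 5 Gy x2 libraries 379, 535, 521 and 143, and 5 Gy x4 libraries 418, 810, 884 and 349. Every 5 Gy x4 library exceeded every control library, and 5 Gy x2 replicate 4 lay below all 4 control libraries. The mean number in 5 Gy x4 was 2.49-fold that in control (615 ± 271 against 248 ± 87.4, SD, n = 4 each), whereas per Mb of all other chromosomes it was 4.80-fold. In 5 Gy x2 the mean was 1.59-fold the control mean (395 ± 182 against 248 ± 87.4), and 2.94-fold over the other chromosomes. These numbers come from libraries of unequal supporting reads. Drawn to equal supporting reads, 5 Gy x4 libraries averaged 314 ± 92.8 chromosome 12 circles against 216 ± 57.5 in control. The 5 Gy x2 mean was then 255 ± 90.8. At equal reads 5 Gy x4 (223 to 434) and 5 Gy x2 (128 to 322) both overlapped control (161 to 280).

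As a share of the library's circles, chromosome 12 held 3.63%, 3.57%, 2.96% and 4.75% in control replicates 1 to 4. It held 1.99%, 1.86%, 1.90% and 2.26% in 5 Gy x2, and in 5 Gy x4 1.89%, 1.81%, 1.91% and 1.73%. The 8 irradiated shares lay close together and below all 4 control shares, which spread most. The highest, in control replicate 4, rested on 171 circles and had a 95% exact (Clopper-Pearson) interval of 4.08% to 5.49%. The mean was 1.84 ± 0.0822% in 5 Gy x4 against 3.73 ± 0.744% in control, and without control replicate 4 the control mean was 3.39 ± 0.367%. Counted in supporting reads, chromosome 12 held 1.88 ± 0.216% in 5 Gy x4 and 2.27 ± 0.582% in 5 Gy x2, against 3.59 ± 0.627% in control.

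Per Mb, irradiated libraries carried chromosome 12 circles at about the density of the remaining genome. Chromosome 12 carried 11.7 circles per Mb against 11.98 on the other chromosomes in 5 Gy x4, 7.48 against 7.33 in 5 Gy x2, and 4.70 against 2.499 in control. The ratio of the densities within a library averaged 0.968 ± 0.0441 in 5 Gy x4 and 1.06 ± 0.0973 in 5 Gy x2, against 2.00 ± 0.417 in control (SD, n = 4 each). Among 21 chromosomes, chromosome 12 ranked first by circles per Mb in control libraries, number 14 in 5 Gy x2 and number 20 in 5 Gy x4, and second by genes with a circle per Mb (463 genes, 8.78 per Mb). Chromosomes 19 and 20, the nearest to it in length, held 2.44% and 2.17% of circles in 5 Gy x4, 2.39% and 2.20% in 5 Gy x2, against 2.89% and 2.71% in control. Across the 21 chromosomes, genes with a circle per Mb were set against circles per Mb. The Pearson r was 0.783 (control), 0.567 (5 Gy x2) and 0.505 (5 Gy x4), as a description of chromosomes that share the same libraries. Leaving out chromosome 12 gave 0.777, 0.600 and 0.602 in the same order of groups. Genes with a circle were counted from these same circles, so part of the relation is built in.

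**Figure D1:**
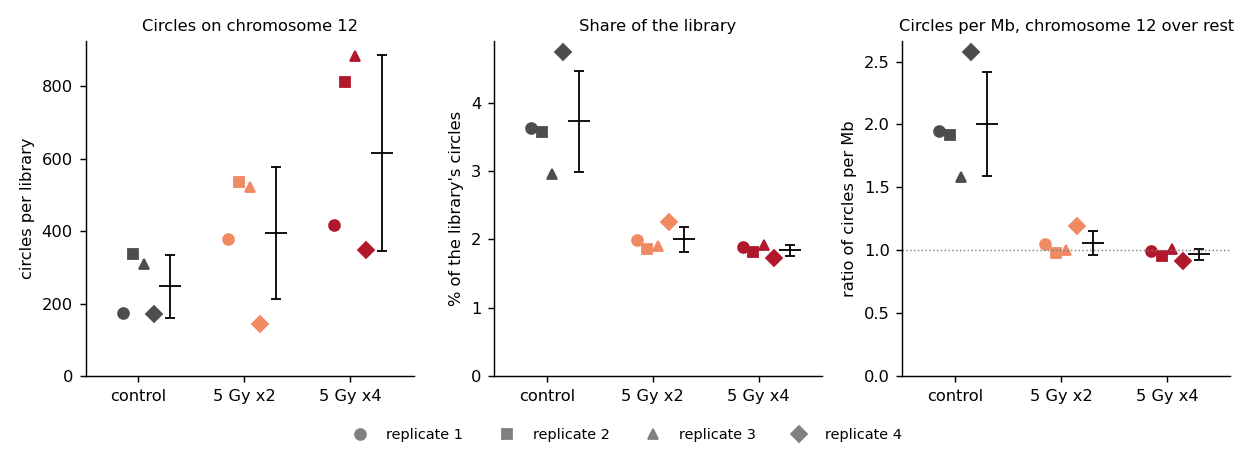
Number of chromosome 12 circles per library, their share of the library's circles in percent, and the ratio of circles per Mb on chromosome 12 to that on all other chromosomes, for control, 5 Gy x2 and 5 Gy x4 (symbols are replicates 1 to 4, bars mean ± SD, n = 4). The irradiated shares sit between 1.73% and 2.26%, below the control shares of 2.96% to 4.75%, and the ratio lies near 1 in irradiated libraries and between 1.58 and 2.58 in control libraries.

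The mean share was lower than in control in every class of length, position and label, and the ranges of the libraries stayed apart in some classes and overlapped in others. Among circles between genes, chromosome 12 held 1.38 ± 0.0649% in 5 Gy x4 and 1.59 ± 0.134% in 5 Gy x2, against 3.501 ± 1.04% in control. Among intronic circles it held 2.503 ± 0.0582% in 5 Gy x4 and 2.65 ± 0.541% in 5 Gy x2, against 4.07 ± 0.313% in control. Neither class overlapped between irradiated and control libraries. Exonic circles did overlap, at 1.55% to 3.06% in 5 Gy x4 and 2.35% to 2.75% in 5 Gy x2, against 2.35% to 4.25% in control, where a library had only 2 to 15 exonic circles on the chromosome.

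By length, circles of 330 to under 420 bp had a chromosome 12 share of 1.71 ± 0.0884% in 5 Gy x4 and 1.61 ± 0.0961% in 5 Gy x2, against 2.75 ± 1.11% in control (1.81% to 4.32%). Circles of 420 to under 1000 bp stood further apart, at 2.19 ± 0.271% in 5 Gy x4 and 3.02 ± 1.31% in 5 Gy x2, against 5.17 ± 0.675% in control. Circles under 150 bp had the highest share of any length class in 5 Gy x4 (4.23 ± 0.260%), against 5.26 ± 1.13% in control, and these ranges overlapped. Circles of 1000 bp or more overlapped as well, at 2.79 ± 0.926% in 5 Gy x4 against 4.53 ± 1.51% in control. Among circles outside 330 to under 420 bp the share was 2.09 ± 0.159% in 5 Gy x4 and 2.75 ± 0.488% in 5 Gy x2, against 4.28 ± 0.406% in control.

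The share was also taken within the deposited labels hconf, conf and lconf, which the tables do not define. Among hconf circles chromosome 12 held 2.08 ± 0.0611% in 5 Gy x4 and 2.52 ± 0.465% in 5 Gy x2, against 4.19 ± 0.675% in control. Among conf circles it held 2.99 ± 0.113% in 5 Gy x4 and 3.15 ± 0.630% in 5 Gy x2, against 5.24 ± 0.711% in control. Among lconf circles the groups overlapped, at 1.54 ± 0.105% in 5 Gy x4 and 1.56 ± 0.145% in 5 Gy x2, against 1.87 ± 0.383% in control. Drawing every library down to 34499 supporting reads left the shares at 1.86 ± 0.183% in 5 Gy x4 and 2.05 ± 0.113% in 5 Gy x2, against 3.88 ± 0.735% in control.

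**Figure D2:**
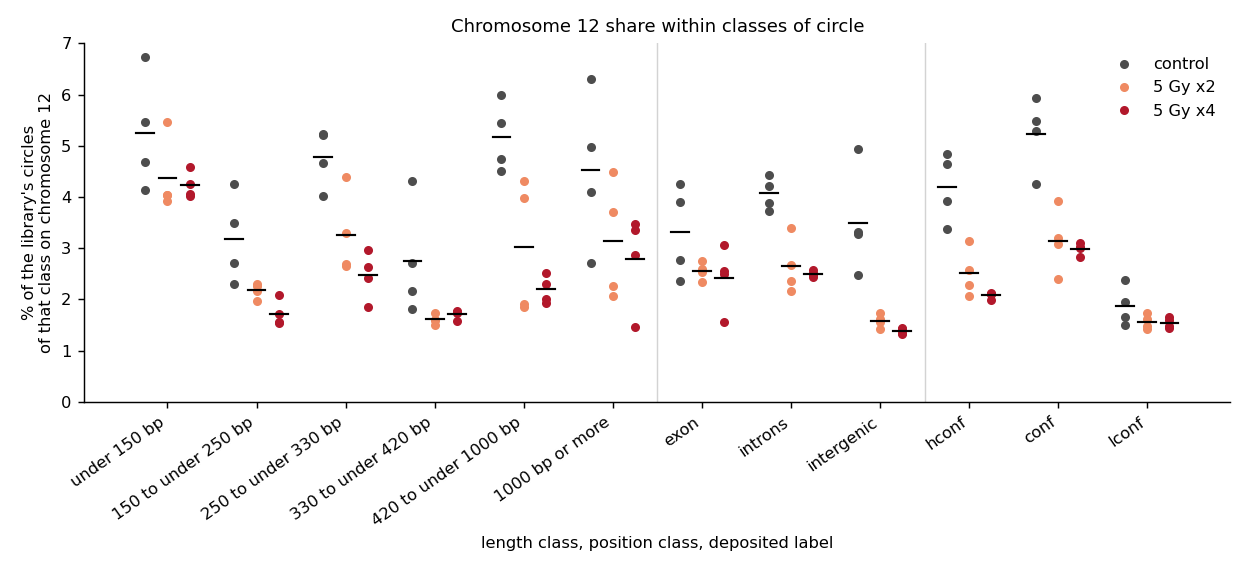
Percent of a library's circles of each length class, position class and deposited label that lie on chromosome 12, for control, 5 Gy x2 and 5 Gy x4 (points are libraries, lines the mean of 4). Control lies above both irradiated groups among intergenic, intronic, hconf and conf circles, while the groups overlap among exonic and lconf circles and under 150 bp.

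Between the doses, neither the number nor the share of chromosome 12 circles differed beyond the spread between libraries. This contrast was not used to choose the chromosome. The number was 615 ± 271 in 5 Gy x4 and 395 ± 182 in 5 Gy x2 (two-sided exact permutation p = 0.257, adjusted p = 0.257, n = 4 each). The share was 1.84 ± 0.0822% in 5 Gy x4 and 2.00 ± 0.180% in 5 Gy x2 (exact permutation p = 0.143, adjusted p = 0.257).

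The make-up of the chromosome 12 circles is given next by group, and no difference between groups passed the adjusted test. The median length was 358 to 361 bp in 5 Gy x4 and 359 to 361 bp in 5 Gy x2, against 320 to 338 bp in control. Circles of 330 to under 420 bp made up 61.5%, 68.3%, 61.3% and 59.6% in 5 Gy x4 replicates 1 to 4, against 24.7%, 21.4%, 27.3% and 14.6% in control. The 5 Gy x2 libraries had 51.4%, 58.9%, 62.8% and 42.7%. Circles of 1000 bp or more made up 1.98 ± 0.619% in 5 Gy x4 and 2.99 ± 0.435% in 5 Gy x2, against 6.57 ± 2.00% in control. Circles listed in more than 1 library made up 10.9 ± 2.504% in 5 Gy x4 and 19.4 ± 9.55% in 5 Gy x2, against 37.5 ± 6.49% in control. In that measure 5 Gy x2 (11.5% to 32.2%) overlapped control (31.5% to 45.0%) and 5 Gy x4 did not. The listed length of such a circle spans all its calls and can exceed each of them, which enters the lengths given here by group. The hconf label was carried by 30.8 ± 1.79% in 5 Gy x4 against 45.1 ± 5.97% in control.

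Genic circles, those overlapping an exon or intron, made up 48.6%, 50.5%, 51.7% and 50.1% of chromosome 12 circles in 5 Gy x4 replicates 1 to 4, against 43.7%, 39.5%, 46.4% and 33.9% in control. The 5 Gy x2 values were 41.7%, 44.5%, 51.6% and 53.8%, which overlapped control. Exonic circles made up 5.84 ± 1.02% in 5 Gy x2 against 3.30 ± 1.47% in control. Of 27 two-sided exact permutation tests (9 measures, 3 pairs of groups), 10 reached 0.0286, the smallest p that 4 libraries against 4 allow, and none passed after Benjamini-Hochberg adjustment (lowest adjusted p = 0.0771). All 10 set an irradiated group against control, the contrast on which the chromosome was chosen, and they support nothing about it.

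The rest of the genome had a like order of the groups in length. Circles of 330 to under 420 bp on the other chromosomes made up 67.3 ± 2.40% in 5 Gy x4 and 66.7 ± 3.87% in 5 Gy x2, against 32.6 ± 12.1% in control. Set against the rest of each library, the genic share of chromosome 12 was higher by 13.5 ± 1.38 percentage points in 5 Gy x4 against 3.74 ± 5.95 points in control (exact permutation p = 0.0286, adjusted p = 0.343). For circles of 150 to under 250 bp the within-library difference was 1.12 ± 1.07 points in 5 Gy x2 against -3.54 ± 3.45 points in control (exact permutation p = 0.0286, adjusted p = 0.343). None of these 27 tests passed.

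Within the libraries, chromosome 12 circles differed from those of the other chromosomes in length, genic position and sharing, and several of these differences passed the test. Circles of 330 to under 420 bp made up 46.2 ± 19.2% of chromosome 12 circles against 55.5 ± 18.2% elsewhere (SD, n = 12 libraries), lower in 12 of 12 libraries (two-sided exact sign-flip p = 0.000488, the smallest it can give, adjusted p = 0.0033 over 27 tests). Genic circles made up 46.3 ± 5.90% on chromosome 12 against 36.7 ± 0.814% elsewhere, higher in 11 of 12 libraries (adjusted p = 0.00396). The exception was control replicate 4, with 33.9% on chromosome 12.

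Circles listed in more than 1 library made up 22.6 ± 13.1% on chromosome 12 against 15.3 ± 11.4% elsewhere. Their share was higher in 12 of 12 libraries (exact sign-flip adjusted p = 0.0033). Such an entry counts in every library that lists it, so the 12 differences are not independent and the p-value is too small. Whether this share follows the density of circles, which is tied to the choice of the chromosome, was not tested. The listed length of such an entry spans all its calls and enters the length classes compared between chromosomes. The hconf label was carried by 36.3 ± 7.89% of chromosome 12 circles against 31.0 ± 7.06% elsewhere, higher in 11 of 12 (adjusted p = 0.00396), and did not pass among circles listed in 1 library (adjusted p = 0.0605). Circles with 1 supporting read were fewer, at 15.1 ± 10.1% on chromosome 12 against 16.5 ± 10.4% elsewhere, lower in 10 of 12 (adjusted p = 0.0466). That call was lost with equal supporting reads (adjusted p = 0.206) and without any one of 9 libraries, which were control replicates 1, 2 and 4, 5 Gy x2 replicates 2, 3 and 4, and 5 Gy x4 replicates 1, 3 and 4 (adjusted p = 0.0527 to 0.0933). Median length (350 bp on chromosome 12 against 354 bp elsewhere), circles of 150 to under 250 bp, circles of 1000 bp or more and exonic circles did not pass. Exonic circles, 5.17 ± 1.90% on chromosome 12 against 4.24 ± 0.762% elsewhere, passed without control replicate 3 (adjusted p = 0.0490), control replicate 4 (adjusted p = 0.0165) or 5 Gy x4 replicate 4 (adjusted p = 0.0433). Circles of 1000 bp or more, 3.85 ± 2.34% on chromosome 12 against 3.04 ± 2.30% elsewhere, passed without control replicate 1 (adjusted p = 0.00959).

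Chromosomes 19 and 20 differed from chromosome 12 in much the same measures. Circles of 330 to under 420 bp made up 46.2% on chromosome 12 against 53.7% on chromosome 19 (adjusted p = 0.00769, exact sign-flip test) and 52.8% on chromosome 20 (adjusted p = 0.0033). Circles listed in more than 1 library made up 22.6% on chromosome 12. Their share was 15.7% on chromosome 19 (exact sign-flip adjusted p = 0.0033) and 18.2% on chromosome 20 (exact sign-flip adjusted p = 0.00377). The limit on independence given above holds here as well. Genic circles made up 46.3% on chromosome 12 against 38.7% on chromosome 19 (adjusted p = 0.00769), while the difference from chromosome 20, at 41.9%, did not pass (adjusted p = 0.0717) except without control replicate 4 (adjusted p = 0.00527). Circles of 1000 bp or more made up 3.85% on chromosome 12 against 1.85% on chromosome 19 (adjusted p = 0.00377), a call lost among circles listed in 1 library (adjusted p = 0.604). Over the 3 partners, 13 of the 27 sign-flip tests passed.

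Entries that overlap another entry, and entries labelled conf, were added as measures after the data were seen. Entries overlapping another made up 21.8 ± 10.6% of a library's circles on chromosome 12 against 15.5 ± 9.26% elsewhere. Their share was higher in 12 of 12 libraries (exact sign-flip adjusted p = 0.0022). Overlap was counted over the list common to all libraries, so here too the 12 differences are not independent. Whether overlap follows the density of circles was not tested. The conf label was carried by 24.9 ± 13.7% on chromosome 12 against 16.8 ± 10.5% elsewhere, higher in 12 of 12 (adjusted p = 0.0022). Overlapping entries made up 15.8% on chromosome 19 (adjusted p = 0.0022) and 19.5% on chromosome 20 (adjusted p = 0.0753, not past the threshold), and conf entries 21.4% and 20.9% (adjusted p = 0.0211 and 0.0022). Of the 18 added tests 5 passed, against 1 among hconf circles alone and 2 among circles listed in 1 library. In control 33.4 ± 6.68% of chromosome 12 circles overlapped another entry, in 5 Gy x2 19.3 ± 8.43% and in 5 Gy x4 12.8 ± 1.26%.

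**Figure D3:**
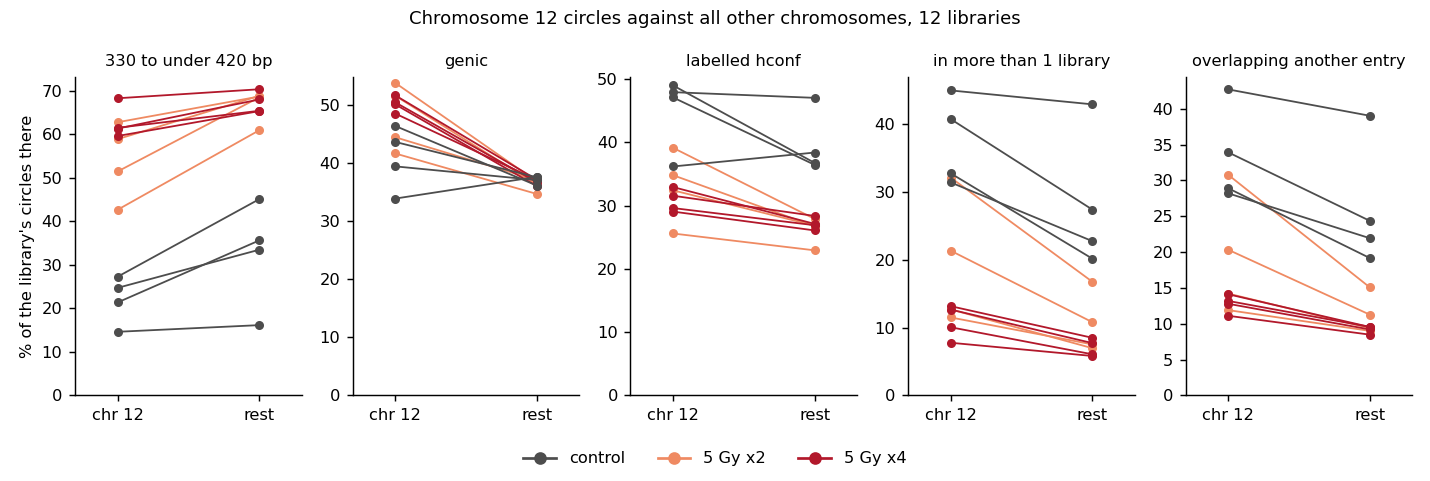
Percent of each library's circles on chromosome 12 (left) and on all other chromosomes (right) that measure 330 to under 420 bp, lie in a gene, carry the label hconf, are listed in more than 1 library or overlap another entry (lines join the 2 values of a library). The line of every library climbs to the right for 330 to under 420 bp and drops for circles in more than 1 library and for overlapping entries, and control libraries lie apart from 5 Gy x4 libraries on chromosome 12 in all 5 measures.

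Along the chromosome, circles fell in each of the 53 bins of 1 Mb, from 10 to 129 entries a bin (median 92). Counted over libraries, the bins with most circles were chr12:51000001-52000000 with 181, chr12:22000001-23000000 with 148 and chr12:50000001-51000000 with 144. The bin from 51000001 holds Ttc28, and that from 22000001 holds 24 genes with a circle, as many as any bin. The bins with fewest were chr12:20000001-21000000 and chr12:35000001-36000000 with 10 each and chr12:21000001-22000000 with 14. All 3 sparse bins were sparse in every group, with 0 to 4 circles in any library. The number of genes with a circle per bin was set against the mean percent of chromosome 12 circles. Over the 53 bins the Pearson r was 0.239 (control), 0.299 (5 Gy x2) and 0.306 (5 Gy x4), a description of bins that share libraries. Those genes were counted from the circles of the bin, so part of this relation is built in.

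The smaller share of irradiated libraries ran along nearly the whole chromosome. Of 52 bins with a control circle, the mean share of the library was below control in 45 bins in 5 Gy x4 and in 44 in 5 Gy x2, with a median ratio to control of 0.567 and 0.565. The last 13 bins, from 40 Mb on, held 27.9 ± 1.67% of chromosome 12 circles in 5 Gy x4 and 30.2 ± 3.27% in 5 Gy x2, against 35.2 ± 4.17% in control. The bin from 22000001 held 2.61 ± 0.683% of chromosome 12 circles in 5 Gy x4 and 2.34 ± 0.792% in 5 Gy x2, against 4.77 ± 0.807% in control. The bin from 27000001 went the other way, with 11, 19, 19 and 13 circles in 5 Gy x4 replicates 1 to 4 against 0, 3, 1 and 1 in control. The 5 Gy x2 libraries had 3, 13, 10 and 1.

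Redistribution within chromosomes was tested over all bins of the genome with edgeR's quasi-likelihood test, with the library's circles on each chromosome as offset. In 5 Gy x4 against control, 1 of the 50 chromosome 12 bins tested passed an adjusted p of 0.05 (2%), against 3.64% of the 2639 bins of the genome (0.758% higher and 2.88% lower). It was the bin from 27000001 (higher by 2.25 on the log2 scale, SE 0.53, adjusted p = 0.00214, edgeR). In 5 Gy x2 against control 0 chromosome 12 bins passed, against 2.31% of all bins (0.493% higher and 1.82% lower), and 7 of the 50 had an unadjusted p under 0.05, as did 368 of all 2639 bins (edgeR). The same bin stood at 1.70 there (SE 0.62, adjusted p = 0.127, edgeR). The chromosome was chosen on these contrasts and nothing is read from the counts. With DESeq2 in place of edgeR, 0 chromosome 12 bins passed in either contrast with control, which ends the call for the bin from 27000001.

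In 5 Gy x4 against 5 Gy x2 no bin passed with edgeR, 0% of the 2639 bins and 0 of the 50 of chromosome 12, whether scaled by chromosome or by library. At an unadjusted p under 0.05 there were 111 bins, 1 of them on chromosome 12, when scaled by chromosome, and 109 and 1 when scaled by library. DESeq2 also called 0.

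**Figure D4:**
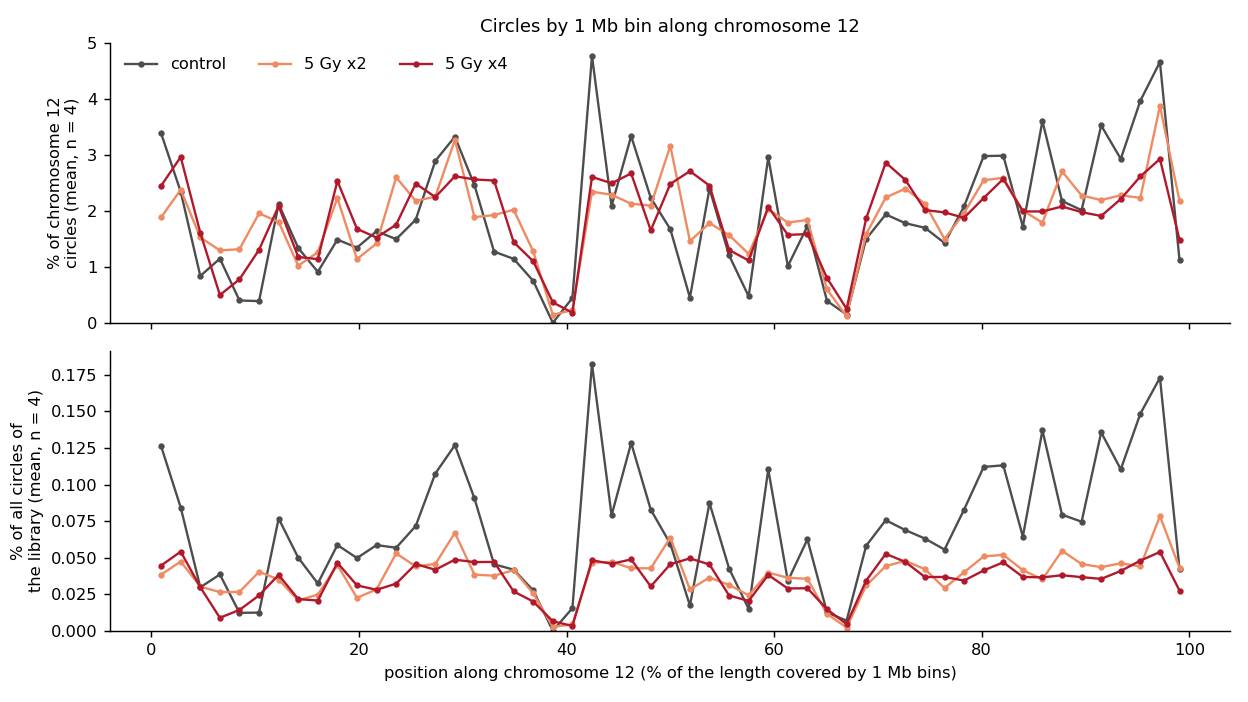
Mean percent of chromosome 12 circles (upper panel) and of all circles of the library (lower panel) in each 1 Mb bin along chromosome 12, for control, 5 Gy x2 and 5 Gy x4 (n = 4 libraries each), with position as percent of the binned length. The upper profiles share gaps at the 3 bins that held fewest circles, and in the lower panel the control profile lies above both irradiated ones in most bins.

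Circles in genes were spread thinly. Exons or introns of 463 genes of chromosome 12 held a circle, with a median of 3 circles a gene over the 12 libraries, 141 genes with 1 and 60 with 10 or more. The 10 named genes with most circles held 19.3% of the 2396 genic circles. Circles were not divided by gene length, so genes of different length are not on a common scale.

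Galnt17, a gene for an enzyme of the family that starts O-linked glycosylation, held 78 circles. Its libraries had 3, 7, 7 and 2 in control, 2, 6, 10 and 3 in 5 Gy x2 and 8, 11, 15 and 4 in 5 Gy x4. As a percent of chromosome 12 circles this was 1.53 ± 0.343% in 5 Gy x4 and 1.42 ± 0.729% in 5 Gy x2, against 1.81 ± 0.484% in control, within the spread between libraries. Ttc28, which encodes a tetratricopeptide repeat protein of dividing cells, held 73, with 1, 10, 6 and 4 in control, 7, 8, 7 and 2 in 5 Gy x2 and 2, 13, 9 and 4 in 5 Gy x4. Both were found in all 12 libraries, as were 5 further genes.

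AABR07035916.1, an annotated gene of unstated function in the bin from 27000001 (circles between 27164352 and 27643817), held 54 circles and none in a control library. Its libraries had 6, 11, 14 and 10 circles in 5 Gy x4 and 2, 5, 5 and 1 in 5 Gy x2, against 0 in all 4 of control. Fry, whose product binds microtubules and shapes cells, likewise had 2, 5, 5 and 1 in 5 Gy x4 and 2, 3, 8 and 4 in 5 Gy x2, against 0 in all 4 of control. A count of 0 among the 990 control circles of the chromosome allows a share of up to 0.303% (3 circles over the group). That limit pools the circles of 4 libraries and leaves out the spread between libraries. AABR07035916.1 made up 1.67% of the group's chromosome 12 circles in 5 Gy x4, and Fry 0.528%. The shares in 5 Gy x2 were 0.824% and 1.08%. Both genes were named for their total of circles, all of which lay in irradiated libraries. Their absence from control was not tested, and the bin of AABR07035916.1 lost its call with DESeq2.

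Tmem132d, a membrane protein gene of the nervous system, held 54 circles, with 0, 0, 7 and 1 in control, 9, 3, 6 and 3 in 5 Gy x2 and 3, 11, 8 and 3 in 5 Gy x4. Caln1, which encodes a neuronal calcium-binding protein, held 52, and Ksr2, a scaffold of mitogen-activated kinase signalling, 49, each in all 12 libraries. Arhgef18 held 45 circles, with 2, 4, 5 and 2 in control, 3, 3, 5 and 3 in 5 Gy x2 and 4, 6, 6 and 2 in 5 Gy x4. AABR07034956.1, with 36, lies within the same stretch as Arhgef18, so a circle can count for both. Mad1l1, a spindle checkpoint gene, held 28, with 2, 4, 7 and 5 in 5 Gy x4 and 1, 1, 5 and 0 in 5 Gy x2, against 2, 1, 0 and 0 in control. As a percent of chromosome 12 circles this was 0.799 ± 0.446% in 5 Gy x4 and 0.353 ± 0.420% in 5 Gy x2, against 0.362 ± 0.544% in control.

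**Figure D5:**
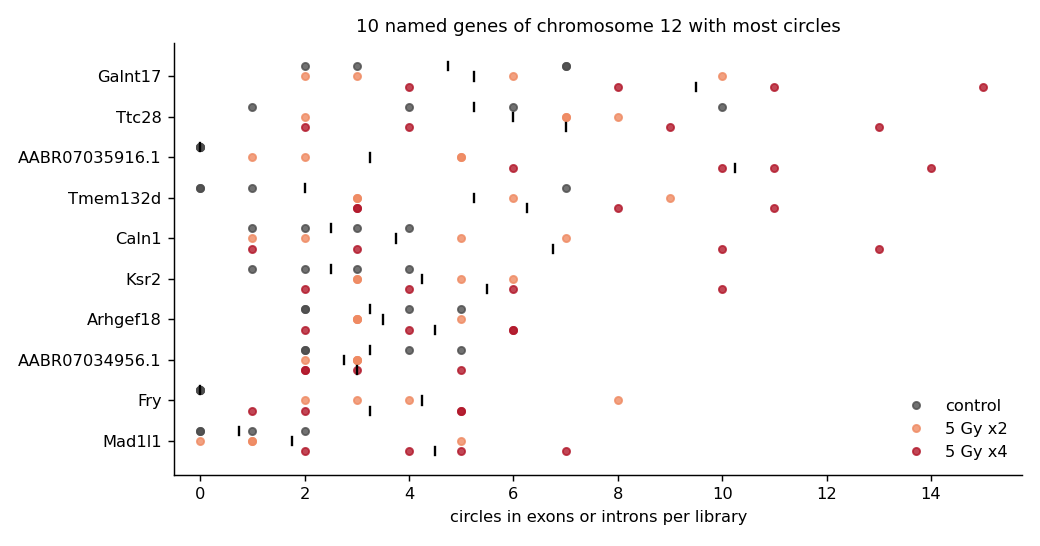
Circles annotated to exons or introns per library for the 10 named genes of chromosome 12 with most circles (points are libraries of control, 5 Gy x2 and 5 Gy x4, ticks the mean of 4). AABR07035916.1 and Fry sit at 0 in all 4 control libraries, and Galnt17 reaches 15 circles in a 5 Gy x4 library.

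Among the gene lists, neuronal or long genes held most circles. Of the 20 genes listed as neuronal or long, 17 were annotated on the chromosome and all 17 held circles, 465 in all with a median of 21 a gene, against a median of 3 over the 463 genes. They made up 9.30 ± 1.03% of chromosome 12 circles in 5 Gy x4 and 11.1 ± 3.49% in 5 Gy x2, against 7.00 ± 2.72% in control, within the spread between libraries. The list was drawn up partly for gene length and circles were not divided by it, so part of its high count per gene is built in. Chromatin and transcription genes held 112 circles over 13 genes, led by Med13l, a Mediator subunit, with 26 and Cux1, a homeobox factor, with 24, both also in the first list.

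Among matrix, vessel and growth factor genes, 8 of the 10 annotated held 51 circles. Col26a1, a collagen gene, held 18 and Flt1, a receptor of vascular endothelial growth factor, 17. Flt1 had 5, 3, 2 and 1 circles in 5 Gy x4 and 0, 3, 2 and 1 in 5 Gy x2, against 0 in all 4 of control. Its share of chromosome 12 circles was 0.520 ± 0.455% in 5 Gy x4 and 0.411 ± 0.303% in 5 Gy x2. As for Fry, a count of 0 among 990 control circles allows up to 0.303%, and the absence was not tested. The list made up 1.33 ± 0.400% of chromosome 12 circles in 5 Gy x4 and 1.13 ± 0.691% in 5 Gy x2, against 0.371 ± 0.742% in control, where 1 library held all of them. The DNA replication and repair genes held 48 circles over 11 genes, with 13 at Pds5b, a cohesin regulator, 7 at Brca2, which acts in homologous recombination, 5 at Pole, a replicative polymerase, and 4 at Pms2, a mismatch repair gene. They made up 0.740 ± 0.529% in 5 Gy x4 and 1.00 ± 0.790% in 5 Gy x2, against 0.825 ± 0.282% in control.

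The Williams syndrome region held 43 circles over 15 genes at a median of 2 a gene, 12 of them at Fkbp6 and 3 at Eln, the elastin gene. They made up 1.18 ± 0.346% in 5 Gy x4 and 0.544 ± 0.135% in 5 Gy x2, against 0.686 ± 0.521% in control. Cytoskeleton and signalling genes held 55 circles over 9 genes, and 5 interferon-induced genes held 12, of which Oas1f held 6. All lists were chosen with earlier results of these data known, and none was tested.

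The 10 circles found in most libraries were intergenic or intronic and measured 265 to 1423 bp. The most widely listed, chr12:41757591-41758564, was found in 9 libraries, all 4 of control among them, with 500 of its 612 reads in 5 Gy x2 replicate 1. It spans calls of 361 to 836 bp and only 2 libraries shared both ends within 2 bp, so it is a cluster of overlapping circles and not a molecule with fixed ends. By contrast chr12:45279899-45280425, of 527 bp, had the same ends in all 8 libraries that listed it, with 12, 13, 194 and 151 reads in control, 0, 20, 0 and 5 in 5 Gy x2 and 0, 52, 42 and 0 in 5 Gy x4. The same held for chr12:43149737-43150001 (265 bp, 8 libraries, all 4 of control) and chr12:7045728-7046004 (277 bp, 8 libraries, all 4 of 5 Gy x4 and 1 of control).

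Of the 10 most widely listed circles, 3 lay in introns. They were chr12:38004002-38004515 in Vps37b, which encodes an endosomal sorting subunit, chr12:46755184-46755814 in Gcn1, a ribosome-bound sensor of amino acid stress, and chr12:51560652-51562074 in Ttc28, found in 8, 8 and 7 libraries. Of the 294 entries in more than 1 library, 33 (11.2%) had the same ends within 2 bp in every call and 56 (19.05%) in at least 2 libraries. Pairs of calls with the same ends numbered 70 of 366 within a group and 144 of 878 between groups. The entries in more than 1 library had a median length of 378.5 bp, and 27.6% measured 330 to under 420 bp, against 356 bp and 59.96% among entries in 1 library. In all 4462 entries the listed span equals the outermost ends of the calls. An entry in more than 1 library can thus be longer than each of its calls, and part of this length difference is built in.

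A few circles held many reads. The best supported was chr12:466091-467212, an intergenic circle of 1122 bp with the same ends in all 4 libraries that listed it, with 644 and 105 reads in 5 Gy x2 replicates 1 and 4, 206 in 5 Gy x4 replicate 1 and 289 in control replicate 2. Next came an intronic circle of Ttc28 of 69 bp, chr12:51694616-51694684, with 260 and 205 reads in 5 Gy x2 replicates 1 and 4 and 303 in control replicate 3. The 10 best supported circles held 14.4 ± 4.46% of chromosome 12 reads in 5 Gy x4 and 21.5 ± 15.0% in 5 Gy x2, against 25.3 ± 4.03% in control. The longest entry, chr12:19351157-19418399 at 67243 bp, was listed in 1 library of 5 Gy x4 and 2 of control. The next 4 in length measured 47333, 35213, 30540 and 17848 bp, and all 5 carried the label lconf.

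Overlapping entries were spread over many sites. In all, 604 entries (13.5%) overlapped another, against 9.32% on the other chromosomes, in 245 clusters. The largest, chr12:393861-429073, held 14 intergenic entries in 9 libraries, with 5 circles in 5 Gy x4 and 6 in 5 Gy x2, against 18 in control. A cluster in an intron of Arhgef18, chr12:1904343-1907034, held 11 entries and was the only one of the 10 largest found in all 12 libraries, with 11 circles in 5 Gy x4 and 7 in 5 Gy x2, against 13 in control. Upstream of Il3ra, whose promoter is printed above, chr12:18540609-18542200 held 7 entries in 8 libraries, with 3 circles in 5 Gy x4 and 3 in 5 Gy x2, against 6 in control.

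Of the 110 entries within 2 kb upstream of genes, none was listed in more than 3 libraries. The Il3ra cluster held 3 of the 6 upstream entries found in most libraries, each in 2 or 3 libraries. Aldh2, which encodes a mitochondrial aldehyde dehydrogenase, had chr12:40464711-40465041 upstream in 3 control libraries with 2, 5 and 25 reads. Ccl24 had chr12:24147750-24148088 with 4 reads in 5 Gy x4 replicate 2 and 14 in control replicate 2. Each of these calls had its own ends, with no pair of libraries sharing both.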

How the data were processed

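Circle-seq libraries of rat skin were compared from the authors' deposited tables. Each library has a deposited table of raw counts of supporting reads per circle, per the file headers. The deposited annotation gives position, gene overlap and label for a list common to all libraries, and the score and coverage of single calls. The submitters' processing notes name BWA, Picard, bedtools and the build rn6. The circle caller and the merging of libraries are not stated in the labels or files used here. Of the per-call columns, 16 (8 in each of the 2 annotation tables, caller scores and coverage among them) were not used. Starts, counted from 0 in the deposited tables, are printed from 1. For 13 entries the listed total exceeded the sum over libraries.

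Members and lists were chosen with earlier results of these data known. Shares, lengths and overlaps were computed in Python 3.11.15 (pandas 2.3.3, numpy 2.4.6, scipy 1.17.1) and tested with two-sided exact permutation (70 splits) or sign-flip tests (4096 flips), with Benjamini-Hochberg adjustment within each family at 0.05. Circles per 1 Mb bin (by start, at least 36 over the 12 libraries) were fitted in R 4.3.3 with edgeR 4.0.16 (glmQLFit, group as the only term, all 12 libraries), with DESeq2 1.42.0 as an alternative. The fit was tested on simulated bins of 5 Gy x4 against control, drawn with an assumed dispersion of 0.05 that was not estimated from these libraries. It called 9.09% of bins changed 2-fold, 68.8% of those changed 4-fold and 90.9% of those changed 8-fold. Of 2424 unchanged bins it called 6. These rates hold for the assumed dispersion only. Bins that were not called are therefore not shown to be unchanged. Single measures are discussed where the unadjusted p was 0.05 or less. Named genes were the 10 with most circles, named circles the 10 in most libraries, the 5 longest and the 5 with most reads, and named bins the 3 with most, the 3 with fewest and those called. An unnamed gene with more circles than any of these was not described. Other bins, list members, clusters and upstream circles were chosen after their values were seen. Alternatives were presence from 2 or 5 reads, equal supporting reads, label, length class, bin width and filter, DESeq2, a replicate block and leaving out each library.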

Additional observations from a re-analysis of the deposited data

Results flagged for a closer look

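The share of chromosome 12 circles labelled hconf was 36.2% in control replicate 2, against 47.1% to 49.0% in the other 3 control libraries, and stood apart from them by more than a standard gap test for 4 values allows. Of 51 groups of 4 libraries examined in this way this was the only one, and chance flags about 1 in 20.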

How the results depend on the processing

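Circles are counted without a known total depth, libraries differ in supporting reads, and 4 libraries against 4 cannot pass the adjusted threshold unless many tests of a family reach the smallest p, so uncalled differences are not shown to be absent. The tests by group stayed at 0 calls under every alternative run, and those against the rest of each library at 10 to 13 under the other settings and 12 to 17 when a library was left out (13 with all). For the added measures of overlap and conf label the 5 calls became 1 among hconf circles, 2 among circles listed in 1 library, and 5 to 6 without each library. The replicate block applies only to the 12 of these tests that compare groups, of which 0 passed with it and none without it. The difference in chromosome 12 share between 5 Gy x4 and control, -1.89 percentage points over all circles, was -1.03 under 150 bp, -1.04 at 330 to under 420 bp, -2.98 at 420 to under 1000 bp, -0.907 in exons and -0.328 among lconf circles, and -1.55 without control replicate 4. In 5 Gy x2 against control it was -1.72 over all circles, -0.889 under 150 bp, -0.764 in exons and -0.311 among lconf circles, and -1.38 without control replicate 4.

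Bins called genome-wide in 5 Gy x4 against control were 96, with 34 under DESeq2, 2 at 330 to under 420 bp, 45 outside it and 42 to 98 without each library (42 without control replicate 4, 56 without control replicate 2). On chromosome 12 the 1 bin became 0 under DESeq2 and at 330 to under 420 bp, 2 from 2 supporting reads on, and 1 to 2 without each library. In 5 Gy x2 against control the 61 bins became 9 under DESeq2, 0 at 330 to under 420 bp, 13 outside it and 21 to 72 without each library (21 without control replicate 4, 34 without 5 Gy x2 replicate 3, and 36 without control replicate 2 or 5 Gy x2 replicate 2), and chromosome 12 had 1 with filterByExpr and 0 to 2 without each library. In 5 Gy x4 against 5 Gy x2 the 0 bins became 2 with filterByExpr, 1 outside 330 to under 420 bp and 0 to 1 without each library, at either scaling, and none on chromosome 12. The smaller length classes also leave fewer bins and circles to test, and for the others the cause was not tested. The labels do not say whether the replicate numbers pair the libraries. Deviations over bins of libraries with the same number correlated at -0.0205 to 0.113. With few circles a bin, such values cannot settle whether the libraries are paired. The replicate block gave 93 bins in 5 Gy x4 against control and 55 in 5 Gy x2 against control. Paired exact tests over 4 pairs cannot reach the threshold and are no check of the measures by group.

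With presence from 5 reads on, the difference in median length turned to -3.38 bp in 5 Gy x4 and -4.25 bp in 5 Gy x2 against control. Among hconf circles alone the share of 1000 bp or more turned to 0.508 points in 5 Gy x2 against control, and the exonic share to -0.514 points on chromosome 12 against all other chromosomes. The cause was not tested. Of the other values for single measures, 507 kept direction and side of the threshold, 22 lost a call and 10 gained one.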

Other observations

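Larger circles were listed apart by the authors as ecDNA, 157 entries in the genome, of which 3 lay on chromosome 12. The longest, chr12:21821973-25912828 (4090856 bp), had 3 supporting reads in 5 Gy x2 replicate 2 and 10 and 25 in control replicates 3 and 4, and was not listed in 5 Gy x4. Another of 648340 bp had 1 read in control replicate 2 and the third, of 776641 bp, 3 reads in 5 Gy x2 replicate 2. All 3 carried the label lconf.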
